A study of Mus musculus with 32 samples.

Results

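The transcripts of 9 genes of pyroptosis and necroptosis, Casp1, Casp4, Casp12, Casp8, Gsdmd, Mlkl, Ripk1, Ripk3 and Fas, were followed in YUMM3.3 cells, a Braf mutant mouse melanoma line. They were chosen by symbol, with earlier results of these data known, and all 9 were found among the 12451 genes of the count table. The experiment asked how Activin-A and IFN-γ interact in melanoma cells cultured without a tumor microenvironment. Cells of this single line were left untreated (NT) or received Activin-A at 40 ng/ml, IFN-γ at 20 ng/ml or both factors, and were harvested after 4 or 12 hrs. Each of the resulting 8 groups held 4 culture wells, and the 32 wells were profiled by BRB-seq, a bulk method that barcodes the RNA of each well and sequences transcript 3′ ends in a pooled library. The Activin-A dose is that of the sample labels and of the methods of this experiment, and legends to the study's plots of the 12 hrs data state a higher one. The untreated wells of the same time point were the controls for each factor alone, so that comparisons of the single factors share them.

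Pyroptosis is a lytic, inflammatory form of cell death. Inflammatory caspases, among them caspase-1 and the product of mouse Casp4 (caspase-11), cleave gasdermin D, and its freed fragment inserts into the plasma membrane as a pore. Necroptosis is also lytic, but it runs through the kinases Ripk1 and Ripk3, which lead to phosphorylation of the pseudokinase Mlkl, the protein that ruptures the membrane. Death receptors such as Fas feed into both apoptosis and necroptosis, and caspase-8 starts the former and restrains the latter by cleaving Ripk1 and Ripk3. IFN-γ acts through a receptor coupled to Jak kinases, and the promoters of genes it induces often hold GAS elements or interferon-stimulated response elements, the latter bound by IRF factors. Activin-A is a TGF-β family ligand that acts through Smad transcription factors.

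The promoters of members that were raised by IFN-γ are shown with the letters of GAS elements and of IRF binding. RefSeq promoter entries of 300 bases (250 before and 50 after the start site, build GRCm38.p6) were found for 8 of the 9 members, 10 entries in all, and none was held for Gsdmd. Both strands were searched for the GAS letters TTCNNNGAA and for the IRF letters GAAANNGAA. Of 32851 mouse promoters of this length, 8.3% held the GAS letters and 8.56% the IRF letters. The GAS letters occurred in the promoters of Casp12, at positions -102 and -36 relative to the start site, of Fas, at -93, and of the second Ripk1 start site, at -108 and -11. The matches in Casp12 and Fas had the same 9 letters. The IRF letters occurred in the second Ripk1 promoter at -5, overlapping the GAS match there, and in Ripk3 at 15. Neither was found in the entries of Casp1, Casp4, Casp8, Mlkl and the first Ripk1 start site, which says only that these letters are not in those windows. The sequences of Casp12 (chr9:5345226-5345525, plus strand), Fas (chr19:34290409-34290708, plus strand), the second Ripk1 start site (chr13:34002624-34002923, plus strand), the first Casp4 entry (chr9:5308599-5308898, plus strand) and Mlkl (chr8:111338156-111338455, minus strand) are given 5′ to 3′, with matches in capitals. The last 2 stand for members that were raised without a match.
Casp12: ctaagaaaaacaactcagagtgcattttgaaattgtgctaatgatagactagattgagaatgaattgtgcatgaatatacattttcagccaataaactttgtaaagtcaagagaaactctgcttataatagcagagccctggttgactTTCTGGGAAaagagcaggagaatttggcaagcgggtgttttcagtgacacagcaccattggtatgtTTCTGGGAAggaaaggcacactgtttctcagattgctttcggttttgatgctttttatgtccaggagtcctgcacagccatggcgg
Fas: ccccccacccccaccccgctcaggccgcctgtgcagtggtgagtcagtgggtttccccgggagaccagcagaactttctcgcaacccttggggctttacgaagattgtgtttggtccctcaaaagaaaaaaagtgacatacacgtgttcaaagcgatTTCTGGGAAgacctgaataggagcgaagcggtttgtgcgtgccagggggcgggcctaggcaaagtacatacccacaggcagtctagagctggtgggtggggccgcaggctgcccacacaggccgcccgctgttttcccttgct
Ripk1: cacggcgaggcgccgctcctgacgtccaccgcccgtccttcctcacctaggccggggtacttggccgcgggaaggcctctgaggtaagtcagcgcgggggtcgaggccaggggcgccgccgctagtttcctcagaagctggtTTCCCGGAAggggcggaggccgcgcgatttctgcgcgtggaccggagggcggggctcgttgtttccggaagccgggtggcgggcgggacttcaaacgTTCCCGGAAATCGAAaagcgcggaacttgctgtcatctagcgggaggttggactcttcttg
Casp4: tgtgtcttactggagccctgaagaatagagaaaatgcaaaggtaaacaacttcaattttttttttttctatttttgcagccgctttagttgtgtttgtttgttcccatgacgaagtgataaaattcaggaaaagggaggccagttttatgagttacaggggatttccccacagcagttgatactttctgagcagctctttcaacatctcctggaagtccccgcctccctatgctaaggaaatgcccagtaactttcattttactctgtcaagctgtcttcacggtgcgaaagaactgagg
Mlkl: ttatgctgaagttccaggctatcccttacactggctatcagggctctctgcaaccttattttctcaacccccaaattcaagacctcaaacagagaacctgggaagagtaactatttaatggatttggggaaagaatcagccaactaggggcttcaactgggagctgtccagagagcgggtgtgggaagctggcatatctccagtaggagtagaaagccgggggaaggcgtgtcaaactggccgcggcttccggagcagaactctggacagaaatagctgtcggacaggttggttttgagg

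Libraries held between 654539 and 1455074 counts (median 988020), and a floor of 3 counts per well equalled 2.06 to 4.58 CPM (counts scaled to a common library size, normalized by TMM). The members spanned a wide range of abundance. Over the 32 wells, Mlkl gave 2315 counts, Casp12 1565, Casp8 1537, Gsdmd 1205, Ripk1 805, Casp4 466, Fas 161, Casp1 131 and Ripk3 27. All 7 melanocyte lineage markers were present, with group sums between 359 and 398 CPM. Of 7 leukocyte markers, 4 were in the table, with group sums between 14.9 and 21.5 CPM and per well up to 17 counts of Lyz2, 13 of Cd14, 5 of Ptprc and 3 of Csf1r. The part of leukocytes in the results was not tested. Of 6 fibroblast markers, 5 were in the table (49.2 to 77.1 CPM), led by Col1a1 at 23.2 to 61.4 CPM per well, 1 of 4 keratinocyte markers was in it (Krt10), and none of 4 endothelial markers. The Activin-A wells at 4 hrs differed most among themselves (chi-square of the counts of a pair of wells, per gene, up to 2.89, against at most 1.54 in the other groups).

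IFN-γ raised members of both death pathways. With every gene of the table tested, IFN-γ raised 6 of the 9 members at 4 hrs (Casp1, Casp4, Casp12, Mlkl, Ripk1 and Fas) and 6 at 12 hrs, when Gsdmd took the place of Ripk1 in that list, and it lowered none (edgeR's quasi-likelihood test, adjusted p below 0.05). Of all 12451 genes, 3.8% were called at 4 hrs and 6.87% at 12 hrs in the same fits. After the filter on low counts, which removed Casp1 and Ripk3 at both times and Fas at 12 hrs, 5 of 7 tested members were called at 4 hrs against 5.06% of all tested genes, and 4 of 6 at 12 hrs against 9.25%. Casp4 and Fas passed that filter through their IFN-γ wells. The members were also chosen with earlier results of these data known. The counts with and without the filter, and their distance from the share of all genes, are thus given as a description. In bulk wells, a difference in the share of cells that express a gene and in the RNA per cell cannot be told apart. Replicates were wells of the same line, and p-values measure the spread between wells.

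**Figure D1:**
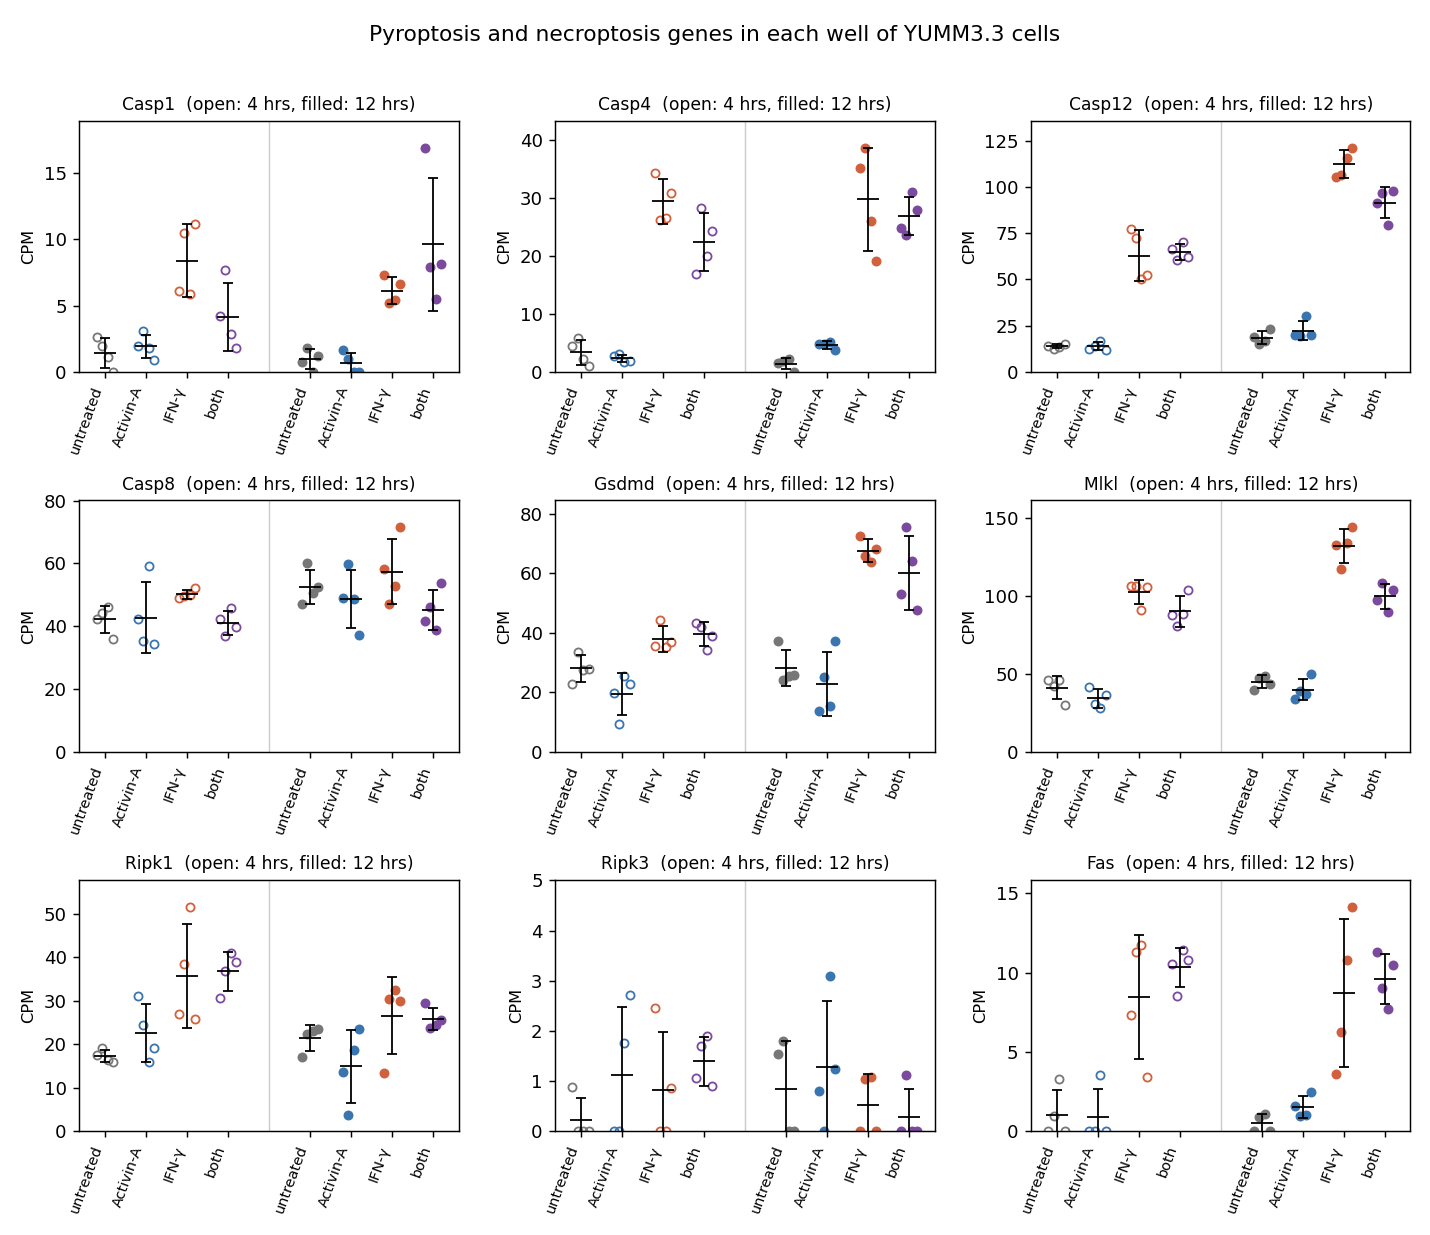
Level of each member in every well (vertical axis, TMM-normalized CPM; open points 4 hrs, filled points 12 hrs; bars, mean ± SD of 4 wells) by treatment. Casp4, Casp12 and Mlkl stood higher in every well with IFN-γ than in every well without it, while Casp8 ranges overlapped between wells with and without IFN-γ over both times and Ripk3 stayed at or under 3 counts.

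Casp4, whose product is the sensor of cytosolic lipopolysaccharide in the non-canonical inflammasome, had among the largest fold changes. The 4 untreated wells at 4 hrs held 5, 6, 2 and 1 counts (4.40, 5.77, 2.20 and 0.999 CPM), and the IFN-γ wells 28, 30, 18 and 36 counts (34.3, 26.2, 26.5 and 30.9 CPM). Untreated wells at 12 hrs held 2, 2, 2 and 0 counts and the IFN-γ wells 29, 37, 24 and 23 (35.2, 38.7, 25.9 and 19.1 CPM). Thus no IFN-γ well overlapped with an untreated well at either time. In the fit without the filter, the log2 fold change was 3.06 ± 0.34 (SE, n = 4 wells a group; adjusted p = 3.88e-14, edgeR) at 4 hrs and 4.21 ± 0.40 (adjusted p = 1.68e-23, edgeR) at 12 hrs. With the filter, which Casp4 passed through its IFN-γ wells, it was 3.07 ± 0.33 and 4.22 ± 0.40. Pooled counts gave ratios of 8.58 (95% exact counting interval 4.91 to 16.2) and 20.1 (8.95 to 55.9), and the second rests on 6 untreated counts in all. The level in IFN-γ wells was similar at both times (29.4 and 29.7 CPM on average), and the difference between the IFN-γ effects at 12 and 4 hrs, 1.16 ± 0.68 on the log2 scale without the filter, did not pass the test (adjusted p = 0.796, edgeR).

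Casp12, a caspase of the same inflammatory group, was counted more often and gave the smallest adjusted p of the members at both times. Untreated wells at 4 hrs held 14.1, 12.5, 13.2 and 15.0 CPM, and IFN-γ wells 77.1, 72.4, 50.0 and 52.3 CPM. The untreated wells at 12 hrs held 18.6, 15.2, 16.5 and 23.4 CPM, and the IFN-γ wells 106, 107, 116 and 121 CPM. The lowest IFN-γ well lay far above the highest untreated one at each time. Casp12 rose by 2.21 ± 0.19 at 4 hrs (adjusted p = 4.73e-14, edgeR) and 2.62 ± 0.16 at 12 hrs (adjusted p = 3.65e-28, edgeR) on the log2 scale, a 4.62-fold and a 6.15-fold increase.

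Casp1, the caspase of canonical inflammasomes and the activator of interleukin-1β and interleukin-18, was detected with few reads. Untreated wells held 3, 2, 1 and 0 counts at 4 hrs and 1, 2, 0 and 1 at 12 hrs, against 5, 12, 4 and 13 and then 6, 5, 5 and 8 with IFN-γ. The groups did not overlap, but all untreated wells were at or under the floor of 3 counts. Pooled counts were 6.08 times higher at 4 hrs (95% exact counting interval 2.52 to 17.7) and 6.40 times at 12 hrs (2.20 to 25.4). Without the filter on low counts, the log2 fold change was 2.50 ± 0.57 at 4 hrs (adjusted p = 0.000976, edgeR) and 2.52 ± 0.67 at 12 hrs (adjusted p = 0.00371, edgeR).

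These 3 caspase genes lie next to each other on chromosome 9 in GRCm38: Casp1 at chr9:5298517-5307265, Casp4 at chr9:5308828-5336783 and Casp12 at chr9:5345430-5373032, all on the plus strand. Gaps of 1562 bp and 8646 bp separate them, and no other protein-coding gene lies in the span of 74516 bp. The last 1000 bases of their transcripts share no word of 50 bases with a transcript of another gene, so that reads of that length would not be split between them. All 3 were thus raised by IFN-γ at both times, Casp1 in the fit without the filter.

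Gsdmd, the pore-forming substrate of the proteases encoded by Casp1 and Casp4 (chr15:75862327-75867408, plus strand), was called at 12 hrs and not at 4 hrs. At 4 hrs the untreated wells held 22.9, 33.7, 27.4 and 27.97 CPM and the IFN-γ wells 35.5, 44.5, 35.3 and 36.9 CPM. The wells did not overlap, but the difference of 0.47 ± 0.19 on the log2 scale did not pass the test over all genes (unadjusted p = 0.0163, adjusted p = 0.202, edgeR). Later, at 12 hrs, untreated wells held 37.1, 24.2, 25.3 and 25.7 CPM and the IFN-γ wells 72.8, 65.9, 63.7 and 68.2 CPM. Here the log2 fold change of 1.23 ± 0.17 passed it (2.35-fold, adjusted p = 8.52e-09, edgeR). The IFN-γ effect was larger at 12 hrs than at 4 hrs by 0.77 ± 0.27 on the log2 scale, with an unadjusted p of 0.00558 but an adjusted p of 0.362 (edgeR, fit of all 32 wells), so that a change of the effect with time was not shown.

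Fas, the receptor of Fas ligand (chr19:34290666-34327772, plus strand), was near the floor without IFN-γ. Untreated wells at 4 hrs held 0, 1, 3 and 0 counts and IFN-γ wells 6, 13, 8 and 4. At 12 hrs the counts were 0, 1, 1 and 0 against 3, 6, 10 and 17. Groups did not overlap at either time, with pooled ratios of 8.32 (95% exact counting interval 2.94 to 32.4) and 19.2 (4.95 to 165). In the fit without the filter, Fas rose by 2.91 ± 0.65 on the log2 scale at 4 hrs (adjusted p = 0.000573, edgeR) and 3.92 ± 0.69 at 12 hrs (adjusted p = 5.46e-07, edgeR). With the filter, which it passed at 4 hrs only and through wells with IFN-γ, the estimate was 2.92 ± 0.68. As a description, this estimate ran from 2.50 to 4.26 with wells left out in turn.

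Casp8, the initiator caspase downstream of Fas (chr1:58795374-58847503, plus strand), was well detected in all wells, at 34.5 to 71.5 CPM, and its change with IFN-γ was small. At 4 hrs the untreated wells held 42.2, 44.3, 46.1 and 36.0 CPM and the IFN-γ wells 49.0, 49.7, 50.0 and 52.3 CPM. At 12 hrs the values were 47.2, 60.0, 50.6 and 52.6 CPM against 58.2, 47.0, 52.9 and 71.5 CPM. The 4-hr groups did not overlap and the 12-hr groups did. Neither difference passed the test: 0.27 ± 0.16 on the log2 scale at 4 hrs (95% interval -0.05 to 0.59, adjusted p = 0.505, edgeR) and 0.14 ± 0.15 at 12 hrs (-0.15 to 0.44, adjusted p = 0.686, edgeR). Between 3.79% and 13.5% of the 50-base words at the 3′ end of Casp8 transcripts also occur in transcripts of Gm20257, which had no row in the table. Casp8 also overlaps the unclassified gene Gm37760 by 3841 bp on the same strand, where counting could drop or split reads.

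Ripk1, the kinase that sits between survival, apoptosis and necroptosis at death receptors (chr13:34002363-34037147, plus strand), was called at 4 hrs only, although the IFN-γ effects at both times were not shown to differ. At 4 hrs the untreated wells held 17.6, 19.2, 16.5 and 15.98 CPM and the IFN-γ wells 26.9, 38.4, 51.4 and 25.7 CPM, with no overlap. The log2 fold change was 1.00 ± 0.23 (adjusted p = 0.00178, edgeR). At 12 hrs the IFN-γ wells held 13.3, 30.3, 32.4 and 29.9 CPM against 17.0, 22.4, 23.1 and 23.4 CPM untreated, and the first replicate of each group was the lowest. The difference was 0.35 ± 0.24 (adjusted p = 0.472, edgeR), and it ran from 0.23 to 0.54 with wells left out in turn, none of which gave a call. The effect at 12 hrs minus that at 4 hrs was -0.63 ± 0.35 (adjusted p = 0.735, edgeR). The gene overlaps Serpinb6a by 432 bp on the opposite strand and the pseudogene Gm17084 by 511 bp on its own.

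Ripk3, the kinase that phosphorylates Mlkl (chr14:55784995-55788865, minus strand), gave 27 counts over the 32 wells. No well held more than 3 counts, and 15 wells held none. The 4 IFN-γ wells had 2, 0, 0 and 1 counts at 4 hrs and 0, 1, 1 and 0 at 12 hrs, and the untreated wells 1, 0, 0 and 0 and then 2, 2, 0 and 0. A change of Ripk3 was not detectable at this depth, where the floor alone amounts to 2.06 CPM or more in each well.

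Mlkl, the executioner of necroptosis (chr8:111311797-111338177, minus strand), was the most deeply counted member. Untreated wells held 45.7, 42.3, 46.1 and 30.0 CPM at 4 hrs, and IFN-γ wells 107, 106, 91.1 and 105 CPM. At 12 hrs they held 39.4, 47.5, 48.4 and 43.3 CPM and 132, 117, 134 and 144 CPM. Every IFN-γ well held more than any untreated well of either time. On the log2 scale Mlkl rose by 1.34 ± 0.14 at 4 hrs (2.52-fold, adjusted p = 2.06e-11, edgeR) and 1.57 ± 0.12 at 12 hrs (2.97-fold, adjusted p = 2.37e-20, edgeR). Mlkl thus rose while Ripk3, the kinase upstream of it, stayed at or under 3 counts per well.

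**Figure D2:**
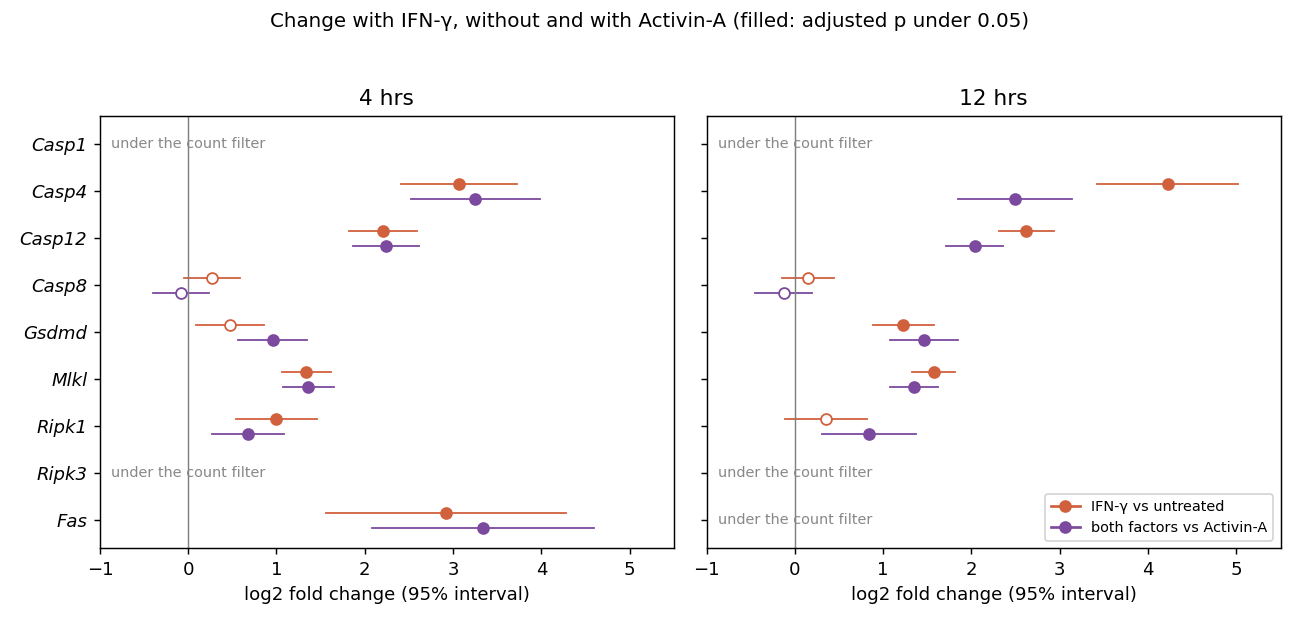
Effect of IFN-γ on each member, without and with Activin-A, at 4 and 12 hrs (horizontal axis, log2 fold change; bars, 95% interval; filled points, adjusted p below 0.05 in edgeR's quasi-likelihood test). Casp4 and Casp12 lay above 2 in all 4 comparisons, Mlkl between 1.34 and 1.57, and Casp8 near 0. These values are from the fit with the count filter, which removed Casp1, Ripk3 and, at 12 hrs, Fas. Casp4, and Fas at 4 hrs, passed it through wells with IFN-γ, so their values there are a description.

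The second question was whether the response to IFN-γ was there when Activin-A was given as well. Against Activin-A alone, both factors together raised 6 of 9 members at 4 hrs (Casp4, Casp12, Gsdmd, Mlkl, Ripk1 and Fas) and 7 of 9 at 12 hrs (all but Casp8 and Ripk3) with every gene tested, and lowered none, where 4.63% and 7.24% of all genes were called. With the filter, these were 6 of 7 and 5 of 6 tested members, where 6.07% and 9.62% of tested genes were called, and these counts too are only a description, since Casp4 and Fas passed the filter through wells with IFN-γ. The Activin-A wells held 4, 2, 2 and 2 counts of Casp4 at 4 hrs and 6, 5, 5 and 3 at 12 hrs, and the wells with both factors 16, 33, 21 and 27 and then 22, 21, 28 and 24. Without the filter, the log2 fold change of Casp4 was 3.26 ± 0.37 at 4 hrs and 2.49 ± 0.33 at 12 hrs (adjusted p = 3.75e-13 and 1.90e-12, edgeR). Casp12 rose by 2.24 ± 0.19 and 2.04 ± 0.16, and Mlkl by 1.36 ± 0.14 and 1.35 ± 0.14. Without Activin-A, the Casp4 and Casp12 estimates at 12 hrs were 4.21 and 2.62, and their differences are given with the interaction.

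Gsdmd was called at both times in this comparison. Activin-A wells at 4 hrs held 19.8, 9.18, 25.6 and 22.7 CPM, the second of them from 6 counts in the shallowest library, and wells with both factors 43.2, 41.9, 34.3 and 38.8 CPM. The log2 fold change was 0.96 ± 0.19 (adjusted p = 0.000315, edgeR), and 1.46 ± 0.19 at 12 hrs (adjusted p = 1.06e-09, edgeR), where the wells held 13.7, 25.2, 15.5 and 37.2 CPM against 53.1, 75.5, 64.2 and 47.8 CPM. Fas rose from 0, 0, 4 and 0 counts to 10, 10, 12 and 12 counts at 4 hrs (3.35 ± 0.60 without the filter, adjusted p = 5.91e-06, edgeR). At 12 hrs Fas had 2, 1, 1 and 2 counts with Activin-A and 10, 8, 7 and 9 with both factors (pooled ratio 6.50, 95% exact counting interval 2.70 to 18.9). Its log2 fold change in the fit without the filter was 2.61 ± 0.56 (adjusted p = 0.000128, edgeR). Leaving out each well of the 4-hr comparison in turn, those of the uneven Activin-A group included, kept the calls of Casp12 (2.18 to 2.36), Gsdmd (0.82 to 1.09) and Mlkl (1.27 to 1.50). The estimates of Casp4 (3.12 to 3.37) and Fas (2.80 to 6.42) are given as a description, since both passed the filter through wells with IFN-γ.

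Casp1 had 3, 2, 2 and 1 counts with Activin-A and 4, 9, 3 and 2 with both factors at 4 hrs, which overlap (log2 fold change 1.16 ± 0.62 without the filter, adjusted p = 0.415, edgeR). At 12 hrs the counts were 2, 1, 0 and 0 against 15, 7, 5 and 7, and Casp1 was called (3.50 ± 0.65, adjusted p = 3.42e-06, edgeR). The pooled ratio there was 13.0 (95% exact counting interval 4.09 to 66.1). Ripk1 was called at 4 hrs (0.68 ± 0.20, adjusted p = 0.0292, edgeR) and 12 hrs (0.84 ± 0.27, adjusted p = 0.0276, edgeR). The 4-hr wells overlapped, with 31.0, 24.5, 15.9 and 19.0 CPM against 30.6, 36.7, 41.0 and 38.8 CPM. At 12 hrs they held 13.7, 3.87, 18.6 and 23.5 CPM against 29.4, 23.7, 24.3 and 25.6 CPM, and without the Activin-A well of 4 counts (3.87 CPM) the difference at 12 hrs did not pass (0.52, adjusted p = 0.265, edgeR). Both Ripk1 calls were also lost with DESeq2 (adjusted p = 0.147 at each time). At 4 hrs the Ripk1 call was lost when any of 5 of the 8 wells was left out (0.53 to 0.95). Casp8 did not pass at either time, with differences of -0.08 ± 0.16 and -0.13 ± 0.16.

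Whether Activin-A changed the levels reached under IFN-γ was asked by comparing both factors with IFN-γ alone. At 12 hrs Mlkl was lower with both factors. The IFN-γ wells held 132, 117, 134 and 144 CPM and the wells with both factors 97.1, 108, 89.6 and 104 CPM, with no overlap. Mlkl fell by 0.41 ± 0.11 on the log2 scale (95% interval -0.62 to -0.19, 0.753-fold, adjusted p = 0.0342, edgeR). In this comparison 1.03% of tested genes were called, and 0.811% without the filter, where Mlkl was again the only member called (adjusted p = 0.0473). The call was lost with DESeq2 (adjusted p = 0.165), in a fit of all 32 wells (adjusted p = 0.0511) and when any of 6 of the 8 wells was left out, with estimates between -0.45 and -0.36. The level under both factors was 2.55-fold above that of Activin-A alone.

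Other members lay lower with both factors at 12 hrs without passing the test. Casp12 held 106, 107, 116 and 121 CPM with IFN-γ and 91.5, 96.9, 79.7 and 97.9 CPM with both, without overlap (-0.30 ± 0.12, adjusted p = 0.272, edgeR). Casp8 held 58.2, 47.0, 52.9 and 71.5 CPM and 41.8, 46.2, 38.7 and 53.6 CPM, with overlap (-0.37 ± 0.16, adjusted p = 0.378, edgeR). Gsdmd (-0.16 ± 0.15), Casp4 (-0.11 ± 0.22) and Ripk1 (-0.07 ± 0.23) had intervals that included 0. In the fit without the filter, the differences were 0.65 ± 0.43 for Casp1 and 0.08 ± 0.39 for Fas.

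At 4 hrs, 0 of 7 tested members were called between both factors and IFN-γ alone, and DESeq2 called 0. An unadjusted p below 0.05 (edgeR) was reached by 0 members and by 850 of 9137 tested genes. All tested genes gave 0.81% of calls with the filter and 0.651% without it, in which again 0 of 9 members were called. The estimates ran from -0.38 ± 0.22 for Casp4 to 0.33 ± 0.41 for Fas. Casp8 wells did not overlap (49.0, 49.7, 50.0 and 52.3 CPM with IFN-γ, 42.2, 36.7, 45.7 and 39.7 CPM with both), with a difference of -0.30 ± 0.16 (adjusted p = 0.575, edgeR). Mlkl stood at 107, 106, 91.1 and 105 CPM with IFN-γ and at 87.5, 80.3, 88.6 and 104 CPM with both (-0.20 ± 0.12, adjusted p = 0.646, edgeR). Casp1 had 5, 12, 4 and 13 counts with IFN-γ and 4, 9, 3 and 2 with both (-1.05 ± 0.45 without the filter, adjusted p = 0.457, edgeR). The change of this Activin-A effect from 4 to 12 hrs was called for 0 of 7 tested members and for 0.0964% of all genes (edgeR). An unadjusted p below 0.05 was reached by 0 members and by 622 of 9332 tested genes, and DESeq2 called 0 members. For Mlkl the change was -0.21 ± 0.16 (adjusted p = 0.878, edgeR), so that the effects at 4 and 12 hrs were not shown to differ. In the fit without the filter, Casp1 differed at 4 hrs before adjustment only (unadjusted p = 0.0221, adjusted p = 0.457, edgeR). Its change with time was 1.69 ± 0.61 (unadjusted p = 0.00661, adjusted p = 0.531, edgeR).

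**Figure D3:**
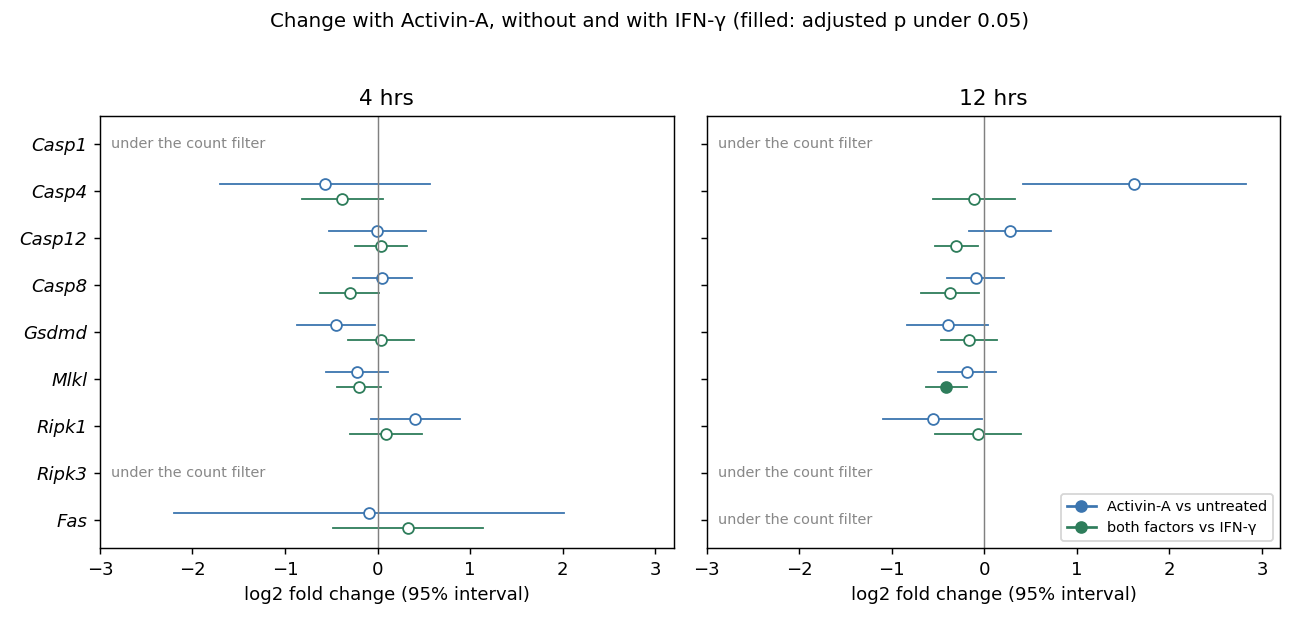
Effect of Activin-A on each member, without IFN-γ (Activin-A against untreated) and with it (both factors against IFN-γ), at 4 and 12 hrs (horizontal axis, log2 fold change; bars, 95% interval; filled points, adjusted p below 0.05 in edgeR's quasi-likelihood test). Mlkl under IFN-γ at 12 hrs (-0.41) is the only filled point, and members with no point were under the count filter. Casp4, and Fas at 4 hrs, passed that filter through wells with IFN-γ.

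Activin-A alone called 0 of 7 tested members at 4 hrs and 0 of 6 at 12 hrs, where 1.64% and 2.41% of all tested genes were called. These counts are a description, since Casp4, and Fas at 4 hrs, passed the filter through wells with IFN-γ. Without the filter, the smallest adjusted p of a member was 0.452 at 4 hrs (Gsdmd) and 0.198 at 12 hrs (Casp4, both edgeR). Unadjusted p-values lay below 0.05 for 1 member at 4 hrs and 2 at 12 hrs, and for 1028 of 9137 and 1017 of 8971 tested genes. DESeq2 called 0 of 9 at 4 hrs and 0 of 5 at 12 hrs, where it gave no adjusted p for Casp1, Casp4, Fas and Ripk3. The 1 at 4 hrs was Gsdmd, with 22.9, 33.7, 27.4 and 27.97 CPM in untreated and 19.8, 9.18, 25.6 and 22.7 CPM in Activin-A wells (-0.45 ± 0.21, adjusted p = 0.402, edgeR). At 12 hrs Gsdmd differed by -0.40 ± 0.22 (adjusted p = 0.512, edgeR; -0.68 to -0.18 with wells left out in turn), and its wells overlapped at both times. Ripk1 at 12 hrs differed by -0.56 ± 0.27 (adjusted p = 0.398, edgeR), an estimate that shrank to -0.24 without the Activin-A well of 4 counts. Mlkl differed by -0.22 ± 0.17 at 4 hrs and -0.19 ± 0.16 at 12 hrs, and Casp12 by -0.0032 ± 0.26 and 0.28 ± 0.22.

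Among the members that passed the count filter, which Casp4 did through wells with IFN-γ, Casp4 at 12 hrs had the largest estimate for Activin-A alone. At that time, untreated wells held 2, 2, 2 and 0 counts and Activin-A wells 6, 5, 5 and 3 counts, without overlap. The pooled ratio was 3.26 (95% exact counting interval 1.25 to 9.98), and the log2 difference of 1.62 ± 0.61 in the fit without the filter did not pass (adjusted p = 0.198, edgeR). At 4 hrs the estimate without the filter had the other sign, -0.57 ± 0.58, from 5, 6, 2 and 1 counts against 4, 2, 2 and 2. With the filter, and as a description, it ran from -0.85 to -0.19 with wells left out in turn. Thus Casp4 stayed at or under 6 counts in all 16 wells without IFN-γ, and this depth limits what could be detected there.

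The interaction of the factors asks whether the effect of IFN-γ differs with Activin-A. It called 0 of 7 tested members at 4 hrs (0% of all tested genes, 505 of them at an unadjusted p below 0.05) and 0 of 6 at 12 hrs (0.0111% of all genes), with edgeR. These counts are a description, since Casp4 passed the filter through wells with IFN-γ, and without the filter 0 of 9 were called at either time. At 4 hrs 0 members had an unadjusted p below 0.05. At 12 hrs 2 had, where 612 of 8971 tested genes did, and DESeq2 called 0 at both times. These 2 were Casp4 (-1.72 ± 0.65, unadjusted p = 0.00823 and adjusted p = 0.520 in the fit without the filter) and Casp12 (-0.58 ± 0.25, unadjusted p = 0.0227, adjusted p = 0.647). The Casp4 value rests on the 6 counts in untreated wells. Gsdmd at 4 hrs was 0.48 ± 0.27 (adjusted p = 0.927), and Mlkl at 12 hrs -0.22 ± 0.19 (95% interval -0.61 to 0.16, adjusted p = 0.914).

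With time alone, 0 of 7 tested members were called between untreated wells at 12 and 4 hrs, against 4.9% of all genes (edgeR, and DESeq2 called 0 of the 6 to which it gave an adjusted p). This count is a description, since Casp4 and Fas passed the filter through wells with IFN-γ. Without the filter, the smallest adjusted p of a member was 0.328 (Casp8, edgeR). Casp8 was the 1 member with an unadjusted p below 0.05, a level that 1637 of 9332 tested genes reached. It held 42.2, 44.3, 46.1 and 36.0 CPM at 4 hrs and 47.2, 60.0, 50.6 and 52.6 CPM at 12 hrs (0.32 ± 0.16, adjusted p = 0.272). Untreated Casp12 wells did not overlap between the times either (0.41 ± 0.24, adjusted p = 0.409). The IFN-γ effect at 12 hrs minus that at 4 hrs was called for 0 of 7 tested members, 1 of which, Gsdmd, had an unadjusted p below 0.05, and for 0.579% of all genes. Of all 9332 tested genes, 689 had an unadjusted p below 0.05, and this count of members too is a description. DESeq2 gave an adjusted p for 1 member alone, Mlkl, and did not call it. For Mlkl and Casp12 it was 0.25 ± 0.19 and 0.43 ± 0.28.

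The genes around the members were described by 6 lists with 85 genes, 65 of them in the table, of which 52 were tested at 4 hrs and 51 at 12 hrs. IFN-γ raised 16 and lowered 0 at 4 hrs, 30.8% of the tested list genes against 5.06% of all tested genes, with a median log2 fold change of 0.16 against -0.01. At 12 hrs it raised 18 and lowered 1, 37.3% against 9.25%, with a median of 0.18 against -0.01. Some list genes passed the filter through wells with IFN-γ. The lists were also chosen with earlier results of these data known, and they include interferon-inducible genes. The shares with and without the filter, and their distance from those of all genes, are therefore a description. Without the filter, IFN-γ raised 18 of the 65 list genes at 4 hrs (27.7% called, against 3.8% of all genes), and raised 21 and lowered 1 at 12 hrs (33.8% against 6.87%). Against Activin-A alone, both factors raised 16 at 4 hrs (30.8% against 6.07%) and 19 at 12 hrs (37.3% against 9.62%) and lowered 0, again as a description. Without the filter they raised 18 at 4 hrs (27.7% against 4.63% of all genes) and 19 at 12 hrs (29.2% against 7.24%) and lowered 0. Between both factors and IFN-γ alone, 0 list genes were called at either time with edgeR. Of all tested genes, 0.81% were called at 4 hrs and 1.03% at 12 hrs, so these counts lie near the background. The counts of each list are given in turn and stand against the same shares of all tested genes, and no test compared the lists with each other.

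Upstream of pyroptosis, 0 sensors or adaptors of canonical inflammasomes were called with IFN-γ (edgeR). Of 15 listed, 7 were in the table and 2 were tested, Nek7 at group means of 93.6 to 120.3 CPM and Dhx9 at 23.0 to 35.2 CPM. Of the non-canonical list, which holds the interferon-inducible GTPases that attack microbial membranes, 5 of 6 tested genes rose at both times. Gbp2 rose by 5.86 ± 0.08 on the log2 scale at 4 hrs and 6.46 ± 0.07 at 12 hrs, Gbp7 by 4.89 ± 0.15 and 6.00 ± 0.15, Irgm2 by 4.90 ± 0.16 at 4 hrs, and Gbp3 by 6.04 ± 0.11 at 12 hrs. The effect grew from 4 to 12 hrs for Gbp2 (0.61 ± 0.13, adjusted p = 0.00526, edgeR) and Gbp3 (1.42 ± 0.26, adjusted p = 0.000292, edgeR) and fell by 0.55 ± 0.14 for Irgm1 (adjusted p = 0.0493, edgeR). The Irgm1 call was lost in the fit without the filter, where 2 list genes were called higher and 0 lower. Downstream, 2 of 4 tested genes of the list of other gasdermins, membrane rupture and cytokines rose at 4 hrs and 1 at 12 hrs. Il18bp, the secreted antagonist of interleukin-18, held 0 to 4 counts in untreated wells at 4 hrs and 0 to 3 at 12 hrs, against 50 to 85 and 157 to 256 with IFN-γ. Its estimates without the filter, 4.98 ± 0.29 and 6.42 ± 0.22, rest on 9 untreated counts at each time. Il18 itself rose by 1.21 ± 0.36 at 4 hrs.

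Around the death receptors, 3 of 9 tested genes rose at 4 hrs, among them Bid, a link to mitochondrial apoptosis (1.50 ± 0.33), and the TNF receptor Tnfrsf1a (1.04 ± 0.11). At 12 hrs 4 rose and 1 fell, with Daxx (0.98 ± 0.16) and Bid (0.97 ± 0.29) among those that rose. Of the regulators of Ripk1, 3 of 18 rose at 4 hrs and 4 of 17 at 12 hrs. They included both Rnf31 (0.80 ± 0.22 and 1.29 ± 0.22) and Rbck1 (0.53 ± 0.11 and 0.80 ± 0.10), subunits of the ligase complex that adds linear ubiquitin chains. Ikbkg, the regulatory subunit of the IκB kinase, rose by 0.52 ± 0.13 at 4 hrs and the deubiquitinase Cyld by 0.52 ± 0.18 at 12 hrs. Of 13 other necroptosis genes, 3 rose at 4 hrs and 4 at 12 hrs. The largest change was that of Zbp1, a sensor of Z-form nucleic acids that can engage Ripk3 (4.15 ± 0.20 and 5.71 ± 0.18). Eif2ak2 rose by 1.41 ± 0.31 and 1.39 ± 0.28, Tlr3 by 0.98 ± 0.26 at 4 hrs, and Adar, an RNA editor that opposes Zbp1, by 1.30 ± 0.19 at 12 hrs.

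Activin-A alone changed 0 list genes at 4 hrs with edgeR, where 1.64% of all tested genes were called. It lowered 2 at 12 hrs, or 3.92% of the tested list genes against 2.41% of all tested genes, a share near the background. Among these was Ninj1, which drives the final rupture of the plasma membrane (-0.59 ± 0.12, adjusted p = 0.000494, edgeR). With both factors Ninj1 was higher than with Activin-A alone at 12 hrs (0.56 ± 0.12, adjusted p = 0.000428, edgeR).

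**Figure D4:**
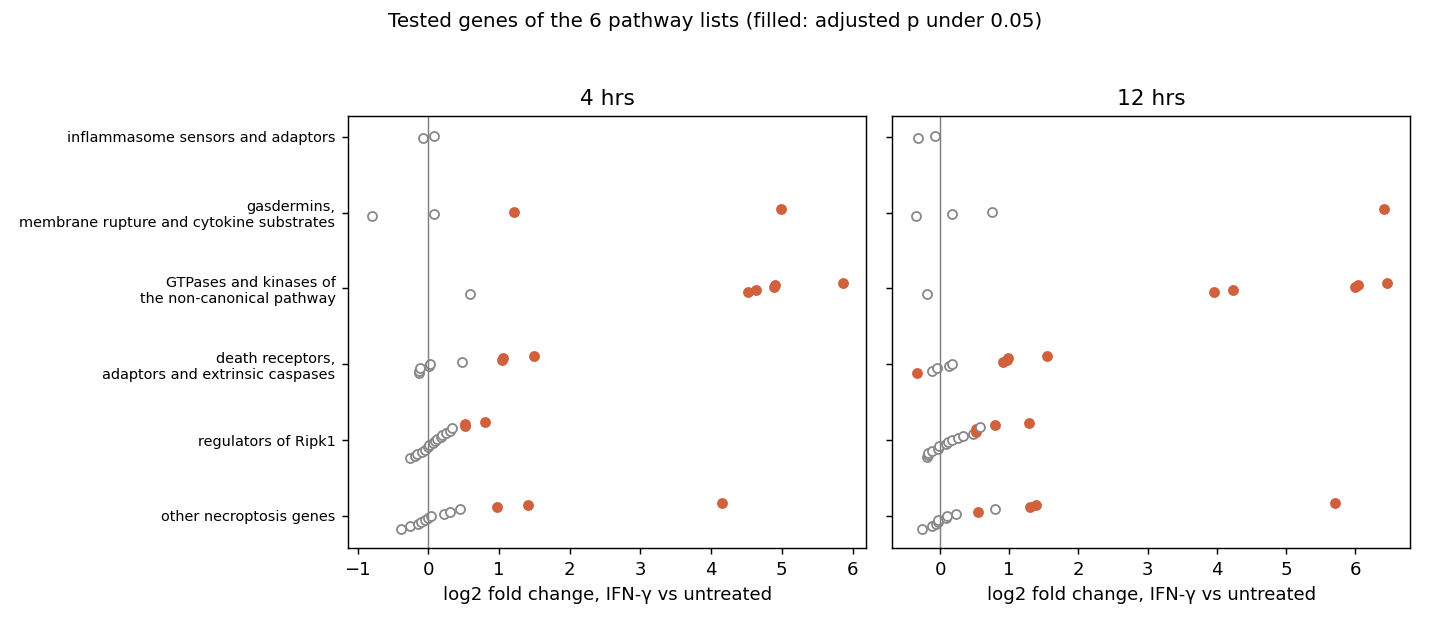
Log2 fold change with IFN-γ against untreated cells (horizontal axis) of each tested gene of the 6 lists at 4 and 12 hrs, 1 point a gene, with vertical offsets that only separate points; filled points have an adjusted p below 0.05 (edgeR). The GTPase list holds 5 filled points at each time, between 3.97 and 6.46. Of the 15 listed inflammasome sensors and adaptors only 2, Nek7 and Dhx9, were tested and have a point, and neither is filled.

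Across the 32 wells, the genes whose log2 CPM followed the members most closely were sought among 9332 genes, as a description, since the wells share treatments and library sizes. Casp4 lay closest to Parp9 (Pearson's r = 0.96), Tubb3 and Dtx3l. Casp12 lay closest to Wars (0.97), Vwa5a and Xaf1, and Mlkl to Wars, Parp3 and Psmb8 (each 0.96). For Fas they were Tgtp2 (0.91), Irgm2 and Gm4951, and for Gsdmd Il17rc (0.90), Sh3bgrl3 and Grn. Ripk1 (0.74 with Nfix, then Lhx6 and Nfkbiz) and Casp8 (0.67 with Txndc12, then Tmem230) had no gene as close.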

How the data were processed

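mRNA of 32 wells of YUMM3.3 cells was measured by BRB-seq. The authors deposited raw counts per Ensembl gene, without normalization. Their processing notes name STAR 2.7.10b, featureCounts, DESeq2 1.36.0 and the build GRCm39 (mm39). How unique molecular identifiers were treated is not given in the sources used here. The exact counting intervals of pooled ratios take each count as independent and leave out the spread between wells. Intervals of log2 differences come from the edgeR fits, which include that spread. From the counts, genes passing filterByExpr on the groups were tested with edgeR 4.0.16 (R 4.3.3; TMM, quasi-likelihood test, Benjamini-Hochberg over all tested genes, adjusted p below 0.05), in fits of 16 wells per time point (9137 and 8971 genes) or all 32 wells across times (9332 genes). log2 CPM used a prior count of 2. Libraries held 654539 to 1455074 counts, with a floor of 3 counts. Differences ± SE are on the log2 scale. The SE was derived from the edgeR test, as the absolute difference divided by the square root of its F statistic. The spread behind it was estimated over all wells of the fit.

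Symbols and gene positions were taken from GENCODE M21 (GRCm38), because no GRCm39 genome was used here, and 12437 of 12451 identifiers matched a symbol. Members and lists were chosen with earlier results of these data known. All 9 members were named, and from each list at most the 3 called genes with the largest change per direction and comparison. Alternatives were RLE scaling, other filters on low counts, DESeq2 1.42.0, a replicate block, other sets of wells, stricter thresholds, a prior count of 0.5 and leaving out each well. The script was tested on simulated data. Comparisons of 2 treatments at 1 time point share wells with each other. Protein sequences were not used here, and values of some list genes are not reported here.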

Additional observations from a re-analysis of the deposited data

Results flagged for a closer look

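In groups of 4 wells, a well was singled out when its gap to the nearest other well, divided by the range of the group, exceeded Dixon's 95% critical value for 4 values. Among the 72 groups (9 members in 8 groups), 8 met this, where chance gives about 1 in 20. Of these, 5 concerned members with ample counts. Casp12 stood at 30.0 CPM in the third Activin-A well at 12 hrs, the others between 19.3 and 20.1 CPM. Gsdmd stood at 37.1 CPM in the first untreated well at 12 hrs, the others between 24.2 and 25.7 CPM. Mlkl stood at 91.1 CPM in the third IFN-γ well at 4 hrs, the others between 105 and 107 CPM. Ripk1 stood low in the first untreated well at 12 hrs (17.0 CPM, the others 22.4 to 23.4 CPM) and in the first IFN-γ well at 12 hrs (13.3 CPM, the others 29.9 to 32.4 CPM). The remaining 3 were single wells of scarce members. They were Ripk3 in the first untreated well at 4 hrs (0.879 CPM, 1 count) and in the second well with both factors at 12 hrs (1.13 CPM, 1 count), and Fas in the third Activin-A well at 4 hrs (3.53 CPM, 4 counts), each in a group whose other wells were at 0.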

How the results depend on the processing

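For 65 gene values, 1111 of 1152 alternative values kept their direction and their side of the threshold, 23 in 3 results lost a call and 18 in 9 results, none of them called, changed sign. Of 248 alternative counts of called members, 235 stayed within 1.5 times. The lost calls were those of Mlkl with both factors against IFN-γ at 12 hrs and of Ripk1 with both factors against Activin-A at each time. The count for the Mlkl comparison fell from 1 to 0 with all 32 wells in the fit, at an adjusted p below 0.01, at an absolute log2 fold change of at least 0.5 and with DESeq2, and ran from 0 to 1 when wells were left out. Ripk1 was lost at an adjusted p below 0.01, with DESeq2 and without any of 5 wells at 4 hrs (0.53 to 0.95 over all wells left out) or 4 wells at 12 hrs (0.52 to 1.10). Requiring 10 counts in every well left 2 called members (Mlkl and Ripk1) for IFN-γ at 4 hrs, 2 for both factors against Activin-A at 4 hrs and 3 (Casp12, Gsdmd and Mlkl) at 12 hrs, since that filter drops a gene once a single well is below 10 counts, as at 4 hrs for Casp12 (lowest well 9) and Gsdmd (lowest well 6) and at 12 hrs for Ripk1 (lowest well 4). Depth limits Casp1, Casp4, Fas and Ripk3 in wells without IFN-γ.

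Signs changed when a well was left out, with these ranges of log2 differences. Activin-A against untreated cells at 4 hrs gave -0.12 to 0.058 for Casp12, -0.14 to 0.15 for Casp8 and -3.18 to 1.25 for Fas. Both factors against Activin-A at 4 hrs gave -0.18 to 0.11 for Casp8, and both against IFN-γ at 4 hrs gave -0.064 to 0.13 for Casp12 and -0.054 to 0.27 for Ripk1. At 12 hrs, IFN-γ gave -0.0059 to 0.22 for Casp8, and both factors against IFN-γ gave -0.30 to 0.060 for Casp4 and -0.26 to 0.032 for Ripk1. The cause was not tested.

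Replicate numbers did not pair the wells (mean correlation of deviations -0.00023 for equal and 8.1e-05 for other numbers, 6 of 32 wells closest to their own number). With the replicate number as a block, 13 of 13 counts of called members equalled those without it, for example 5 for IFN-γ at 4 hrs.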
